A study of Mus musculus with 2 samples.

Results

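The 10 genes Pltp, Lcat, Apom, Apof, Abca1, Abcg1, Scarb1, Lipc, Pon1 and Pon3 build, remodel and clear high density lipoprotein (HDL), or encode proteins that HDL carries. Members were found by matching these symbols in the expression tables, which hold 13326 gene symbols. A row was found for 9 of the 10, each in a single row, and Abcg1 was not analysed here. The 9 genes stood at 9.54 FPKM or more in both libraries, so none was lost to the minimum of 1 FPKM in at least 1 library, which 11985 genes passed. FPKM values are fragment numbers corrected for transcript length and sequencing yield, so levels can be compared between genes.

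Liver RNA came from male C57BL/6J mice aged 12 weeks and fasted overnight, either wild type or Adipoq-/-. Adipoq encodes the fat cell hormone adiponectin, and the label gives no tissue limit for its loss. RNA of 9 to 10 mice of a genotype was pooled into 1 library, so there are 2 libraries in all and no measure of the spread between animals. The comparison asks how hepatic expression of lipid and glucose genes differs without adiponectin. Since Adipoq was not analysed here, no check of the genotypes against it was made.

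HDL begins when the transporter ABCA1 loads phospholipid and cholesterol onto apolipoprotein A-I made largely by liver and intestine. Lecithin-cholesterol acyltransferase (LCAT) then esterifies the cholesterol and rounds the particle, while phospholipid transfer protein (PLTP) and hepatic lipase (LIPC) change its size and lipid content. The hepatic receptor SR-BI, product of Scarb1, takes cholesteryl ester from HDL for excretion into bile, and APOM, APOF and the paraoxonases PON1 and PON3 travel on the particle.

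Expression of 7 of the 9 HDL genes lay within 1.5-fold of the median change of all genes, as did 10866 of 11985 genes. The other 2 lay on opposite sides, Pltp lower and Apom higher. Relative to genes of like transcript length Apom too lay within 1.5-fold, as it did after rescaling the libraries to equal sums. As deposited, Pltp was 3.14-fold lower in the knockout library, at 76.8 FPKM in wild type and 24.5 FPKM in Adipoq-/-. Apom was 1.57-fold higher as deposited, at 235 FPKM in wild type and 369 FPKM in Adipoq-/-. The summed level of the 9 genes was nearly equal as deposited, at 1552 FPKM in wild type and 1539 FPKM in Adipoq-/-. The FPKM of all genes summed to 798170 in wild type and 891964 in Adipoq-/-. As a share of these totals, the 9 genes made up 0.194% and 0.172%. With 1 library per genotype there is no test, no p-value and no replicate check for any of these differences. The sequencing depth is unknown.

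Sequences upstream of the RefSeq transcription start are shown for the members farthest from the other genes, Pltp and Apom. RefSeq held promoter entries, on build GRCm38.p6, for 7 of the 10 genes, and those not matched were Apof, Abcg1 and Scarb1. The 250 bases before the start of each gene are printed 5′ to 3′ on the gene's strand. They lie at chr2:164857709-164857958, minus strand, for Pltp and at chr17:35131802-35132051, minus strand, for Apom. Capitals mark matches, on either strand, to 6 patterns: the nuclear receptor half-sites AGGTCA and GGGTCA, a spaced repeat (GGTTA and GGTCA with 5 bases of any kind between them), the GC box GGGCGG, the TATA box TATAAA and the E-box CACGTG.
Pltp: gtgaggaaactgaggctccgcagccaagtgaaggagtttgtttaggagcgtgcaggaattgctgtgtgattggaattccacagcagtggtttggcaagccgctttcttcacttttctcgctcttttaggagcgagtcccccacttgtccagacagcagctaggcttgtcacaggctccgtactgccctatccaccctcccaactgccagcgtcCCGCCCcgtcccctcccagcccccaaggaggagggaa
Apom: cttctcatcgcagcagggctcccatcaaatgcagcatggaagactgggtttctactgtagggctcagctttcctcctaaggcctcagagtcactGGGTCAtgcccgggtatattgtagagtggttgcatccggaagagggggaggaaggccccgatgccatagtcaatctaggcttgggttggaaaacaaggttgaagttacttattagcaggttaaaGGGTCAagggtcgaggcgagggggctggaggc

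The Pltp stretch held a GC box on the strand opposite to the gene, from 37 to 32 bases before the start, and none of the other patterns. The Apom stretch held GGGTCA on the gene's own strand from 156 to 151 and again from 32 to 27 bases before the start. Among all 32851 upstream windows of this length, 32.7% held GGGCGG and 11.6% held GGGTCA, so both matches are common. The G and C content was 57.6% for Pltp and 54.0% for Apom, against a median of 52.4% over all windows.

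Abca1 is shown for its liver X receptor (LXR) element, since LXR, a sterol-sensing nuclear receptor, is known to drive Abca1, Abcg1 and Pltp. The spaced repeat was searched because it spells the LXR element known from this promoter. It was found from 67 to 53 bases before the Abca1 start on the opposite strand and in 0.0457% of all windows. The 30 bases around it, from chr4:53159941-53159970 on the minus strand, are printed with the match in capitals.
Abca1: acagcgttTGACCGGTAGTAACCccggcgc
Neither the printed Pltp nor the printed Apom stretch held this pattern. It was spelled after the Abca1 element and is missing from nearly all windows, so nothing is concluded from its absence. No looser form of the LXR element was searched. The patterns were picked with the sequences and the expression values known, and a match describes letters in this window only.

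Across all 11985 genes the median of log2((knockout FPKM + 1) / (wild-type FPKM + 1)) was -0.15. The ratios given here are relative to that median, unless values as deposited are named, so that 0 means a gene moved like the median gene. On this scale 2.61% of all genes were at least 1.5-fold lower and 6.73% at least 1.5-fold higher. Of the 9 HDL genes, 1 was past that limit in each direction. Among the 4991 genes averaging 10 FPKM or more, a group that holds all 9 HDL genes, these shares were 1.92% and 9.6%. As deposited, 1 HDL gene (Pltp) was at least 2-fold lower and 0 were at least 2-fold higher, against 0.759% and 0.459% of all genes. The median over the 9 HDL genes was -0.07, beside 0 over all genes and 0.10 over the genes of at least 10 FPKM. In all, 6 of the 9 lay below the all-gene median, against 50% of all genes and 39.5% of the abundant ones. The division of these calls over all genes differed with the scaling. Genes past 1.5-fold were on the higher side in 72.0% of cases on the relative scale, 34.4% as deposited, 49.5% after upper quartile scaling, 10.9% after rescaling to equal sums, 29.4% after rescaling without major urinary protein (Mup) and mitochondrial genes, and 52.5% relative to genes of like length.

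**Figure D1:**
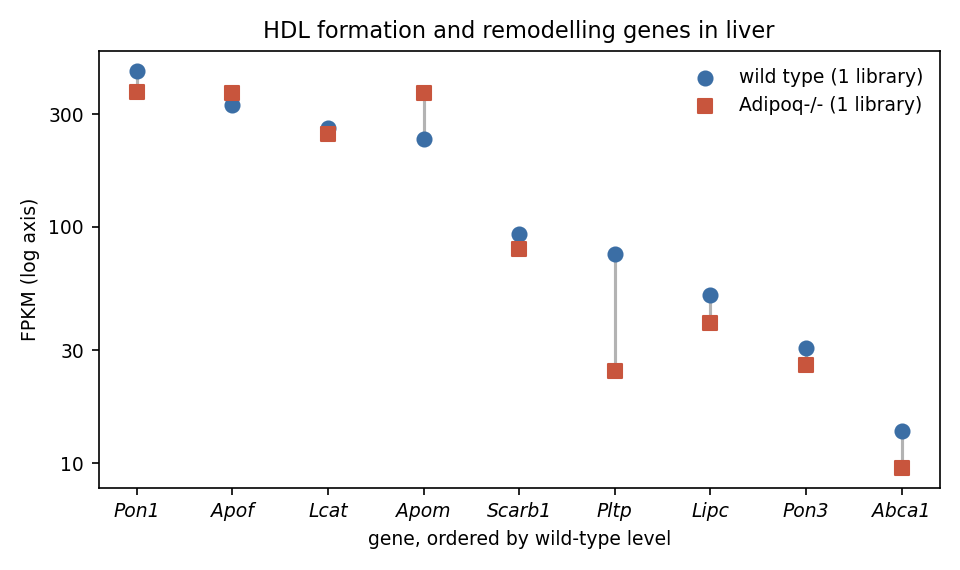
FPKM of the 9 HDL genes (vertical log axis) in the wild-type library (circles) and the Adipoq-/- library (squares), 1 library each, ordered by wild-type level. Pltp is at 76.8 and 24.5 FPKM and lies below Lipc and Pon3 in the knockout library, and Apom is at 235 and 369 FPKM, beside Apof and Pon1 in the knockout library.

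The genes of HDL assembly were led by Lcat and included the least abundant member, Abca1. Abca1 stood at 13.7 FPKM in wild type and 9.54 FPKM in the knockout library, a relative log2 ratio of -0.33. This is 69.8% of the wild-type level as deposited, and 11.4% of all genes were at least as low on the relative scale. Lcat, whose enzyme is secreted by the liver into plasma, stood at 263 FPKM in wild type and 246 FPKM in the knockout library. Its relative log2 ratio of 0.06 turned to -0.09 as deposited, so no direction can be given for Lcat.

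Of the remodelling genes, Pltp differed by far more than Lipc. For Pltp the relative log2 ratio was -1.46, and 17 of 11985 genes, Pltp among them, were at least as low. Of the 4991 genes averaging 10 FPKM or more, 3 were at least as low, Pltp included. Its place in the order of all genes by level went from 1262 in wild type to 2891 in the knockout library. Lipc, the lipase that hydrolyses phospholipid and triglyceride on HDL, stood at 51.4 FPKM in wild type and 39.2 FPKM in the knockout library. The Lipc ratio was -0.23, and 19.2% of all genes were at least as low. Lipc was thus below Pltp in the wild-type library and above it in the knockout library, with 0.67 and 1.60 times the Pltp level.

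The 3′ parts of Pltp and of its neighbour Ctsa, the gene for the lysosomal carboxypeptidase cathepsin A, overlap on opposite strands by 495 exon bases in the GENCODE M21 annotation. The sources used here do not say whether counting used strand, and without strand the reads of this stretch cannot be told apart. Ctsa itself stood at 41.8 FPKM in wild type and 38.4 FPKM in the knockout library, a ratio of 0.03. On the other side of Pltp, Pcif1, which encodes an mRNA cap methyltransferase, stood at 13.9 and 17.1 FPKM, a ratio of 0.43. Neither neighbour was lower relative to all genes. No other HDL gene with a row had exons that overlap another gene's in that annotation.

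The uptake receptor gene Scarb1 stood at 93.7 FPKM in wild type and 80.8 FPKM in the knockout library. Its relative log2 ratio was -0.06, it became 0.003 relative to genes of like length, and 41.4% of all genes were at least as low. Pdzk1, whose scaffold protein stabilises SR-BI at the surface of hepatocytes, stood at 23.8 and 18.5 FPKM, a ratio of -0.19.

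Among genes whose proteins travel on HDL, Apom lay farthest from the others. APOM is a lipocalin that binds the signalling lipid sphingosine-1-phosphate and is anchored to HDL by a retained signal peptide. The relative log2 ratio of Apom was 0.80. On the relative scale 2.29% of all genes were at least as high, as were 2.93% of those averaging 10 FPKM or more. Apom remained higher under all 10 alternative settings, but was under 1.5-fold after rescaling to equal sums (0.49) and relative to genes of like length (0.57). The genes on either side of it on chromosome 17 were not higher. D17H6S53E stood at 1.68 and 0.927 FPKM, a ratio of -0.32, and Bag6, a chaperone gene, at 10.4 and 8.38 FPKM, a ratio of -0.13.

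Apof, known in species with cholesteryl ester transfer protein as an inhibitor of that transfer, stood at 328 FPKM in wild type and 370.4 FPKM in the knockout library. The relative log2 ratio was 0.33, and 19.5% of all genes were at least as high. The adjacent Apon, which encodes apolipoprotein N, was at 184 and 178 FPKM, a ratio of 0.11. Relative to Lcat within the same library, a comparison that scaling cannot move, Apom was at 0.89 times in wild type and 1.5 times in the knockout library, and Apof at 1.25 and 1.5 times.

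The paraoxonases, lactonases carried by HDL, kept nearly the same proportion to each other. Pon1 was the most abundant HDL gene in both libraries, at 459 FPKM in wild type and 372 FPKM in the knockout library, a relative log2 ratio of -0.15. Pon3 stood at 30.6 and 26.1 FPKM, a ratio of -0.07. Pon1 was at 15.0 times the level of Pon3 in wild type and 14.2 times in the knockout library. Pon2, the intracellular member encoded next to Pon3 on chromosome 6, stood at 18.0 and 12.3 FPKM, a ratio of -0.37. Paraoxonase genes are related in sequence, and the sources used here do not say how shared reads were assigned.

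The order of the HDL genes by level differed between the libraries. In wild type it ran from Pon1 through Apof, Lcat, Apom, Scarb1, Pltp, Lipc and Pon3 to Abca1. In the knockout library Pon1, Apof and Apom stood side by side at 372, 370.4 and 369 FPKM, followed by Lcat, Scarb1, Lipc, Pon3, Pltp and Abca1. With no replicates, neighbours in this order have no spread to be set against. Apom was at 3.06 times the level of Pltp in wild type and at 15.1 times in the knockout library.

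**Figure D2:**
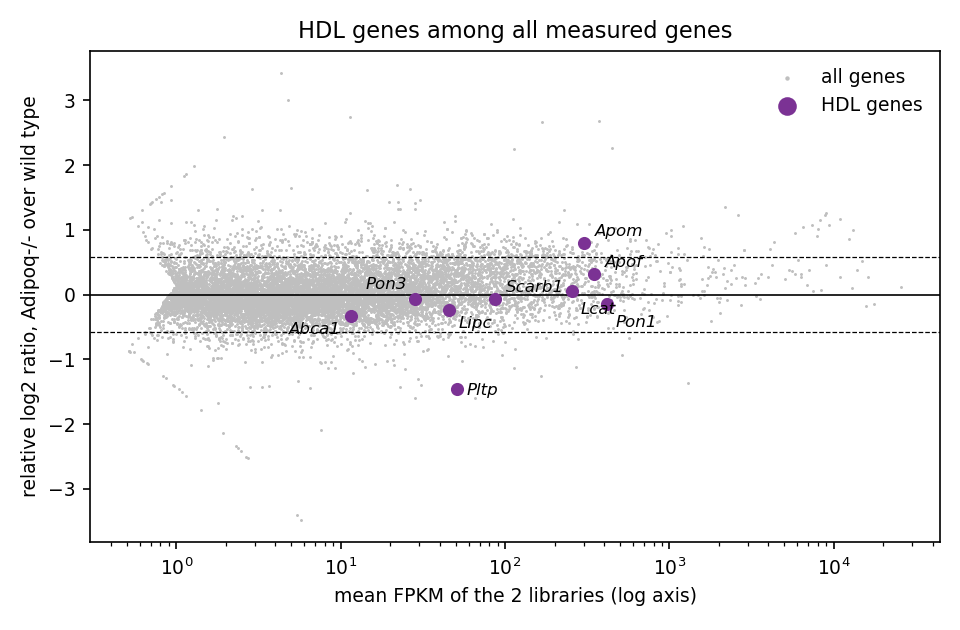
Relative log2 ratio of Adipoq-/- over wild type (vertical axis) against the mean FPKM of both libraries (log axis) for 11985 genes (grey), with the 9 HDL genes in purple. The solid line marks the all-gene median and the dashed lines 1.5-fold. Pltp at -1.46 and Apom at 0.80 lie outside the dashed lines and the other 7 HDL genes between them.

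Transcript length moved with the ratio over all genes, and the HDL genes differ in length. In 20 equal bins of genes by their longest annotated transcript, the median ratio went from 0.39 in the shortest to -0.11 in the longest bin. Apom, whose longest transcript is 1013 nucleotides, lies in a bin with a median of 0.23, and its ratio relative to that bin was 0.57. Abca1, with 10262 nucleotides, lies in a bin with a median of -0.11, and its ratio relative to that bin was -0.22. Pltp, with 2226 nucleotides, lies in a bin whose median was -0.01, and its ratio relative to that bin was -1.45. The part of length in these ratios was not tested further.

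**Figure D3:**
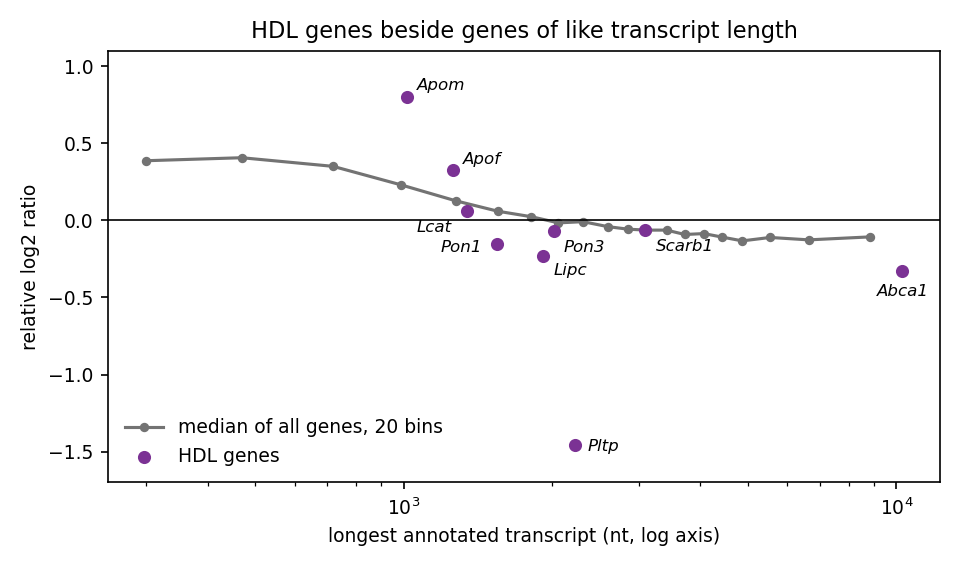
Relative log2 ratio of the 9 HDL genes (purple) against the length of the longest annotated transcript (log axis), with the median ratio of all genes in 20 length bins (grey line, each point at the bin's median length). Pltp lies far below the line at -1.46, Apom above it at 0.80, and Scarb1 on it at -0.06.

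Apolipoproteins are the structural proteins of the HDL particle. Of 13 listed, 12 were measured, 9 lay above the median of all genes and 2 of these by at least 1.5-fold, with a list median of 0.11. This is close to the genes averaging 10 FPKM or more, of which 3019 of 4991 lay above, with a median of 0.10. Of those genes, 9.6% were at least 1.5-fold higher. After length correction this list median was -0.004, and as deposited it was -0.04, so the list has no direction that holds across scalings. Apoa1, the main HDL protein, stood at 6039 FPKM in wild type and 6541 FPKM in the knockout library, a ratio of 0.27. Apoe, a ligand for hepatic lipoprotein receptors, was at 19450.3 and 15783 FPKM (-0.15). The highest ratios belonged to Apoc4 (2326 and 3374 FPKM, 0.69) and Apoc2, the lipoprotein lipase cofactor (649 and 883 FPKM, 0.59), and the lowest to Apoa5 (282 and 205 FPKM, -0.31).

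Other proteins that HDL can carry had a list median of 0.31, and 13 of 15 lay above that of all genes, 3 of them by at least 1.5-fold. Of the genes averaging 10 FPKM or more, 3019 of 4991 lay above, and 9.6% were at least 1.5-fold higher. The acute phase genes Saa1 (110 and 636 FPKM, 2.68) and Saa2 (49.3 and 286 FPKM, 2.66) were the highest. The sources used here do not say how reads shared by Saa1 and Saa2 were assigned, so these ratios may not be separate. Their proteins are known to replace part of apolipoprotein A-I on HDL in inflammation. At the other end were Serpinf2, the antiplasmin gene (280.2 and 232 FPKM, -0.12), and complement C3 (511 and 447 FPKM, -0.04). After rescaling to equal sums the list median was -0.0007.

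Genes for very low density lipoprotein (VLDL) assembly, the other lipoprotein pathway of the hepatocyte, had a median of -0.16. Of the 15, 10 lay below the all-gene median and none was past 1.5-fold. The share below it was 50% of all genes and 39.5% of those averaging 10 FPKM or more. Of all genes, 2.61% were at least 1.5-fold lower and 6.73% at least 1.5-fold higher. In the VLDL list the carboxylesterase gene Ces1d (522 and 329 FPKM, -0.51) and Dgat1, for triglyceride synthesis (15.7 and 10.3 FPKM, -0.41), had the lowest ratios. Sar1b (431 and 440.0 FPKM, 0.18) and Sort1 (2.22 and 2.24 FPKM, 0.16) had the highest. The HDL genes had a wider range than the VLDL list, from -1.46 to 0.80 against -0.51 to 0.18. That difference has no test.

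**Figure D4:**
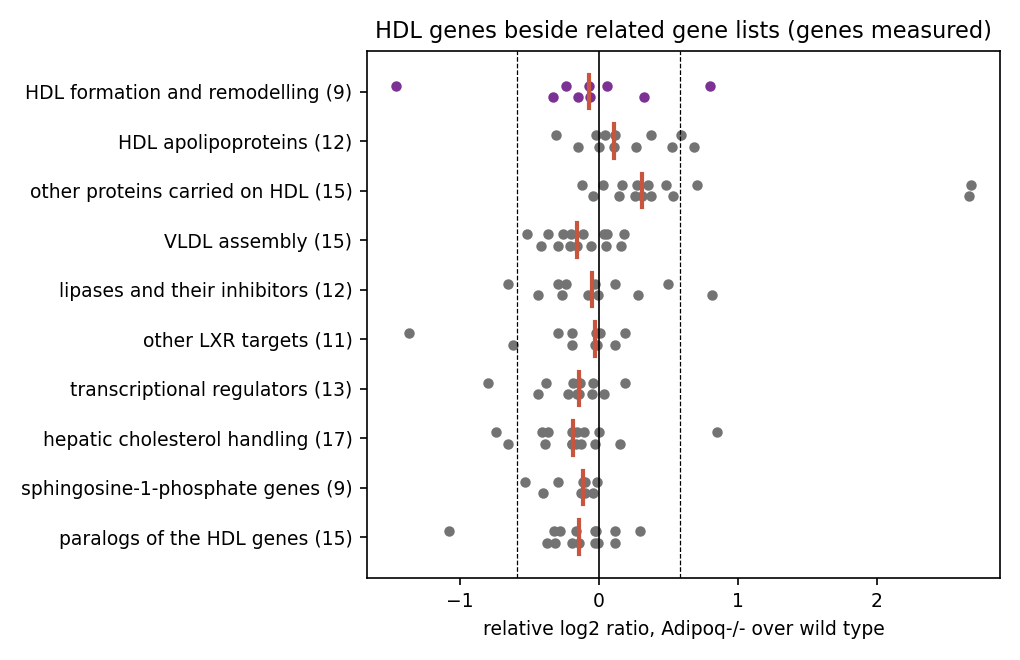
Relative log2 ratio of Adipoq-/- over wild type (horizontal axis) for each measured gene (points) of the HDL genes and 9 related lists, with the list median as a red bar and the number of genes in parentheses. Dashed lines mark 1.5-fold. The HDL genes have a median of -0.07, and the other proteins carried on HDL have the highest median, 0.31.

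Lipases, their inhibitors and the proteases that process them had a median of -0.05 over 12 measured genes, 8 of them below the all-gene median. Of all genes, 50% lay below it. Lipg, the endothelial lipase that acts on HDL phospholipid, stood at 2.29 and 1.95 FPKM, a ratio of -0.01. Lysosomal acid lipase, Lipa, was the lowest of this list (68.8 and 39.0 FPKM, -0.65), followed by the proprotein convertase gene Pcsk6 (12.4 and 7.93 FPKM, -0.43). Gpihbp1, the anchor of lipoprotein lipase on capillaries, was the highest (27.0 and 43.3 FPKM, 0.81), ahead of Angptl4, an inhibitor of that lipase (7.45 and 9.75 FPKM, 0.50). With a minimum of 5 FPKM the list median was -0.28, and after length correction it was 0.03.

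The lower Pltp and Abca1 can be set beside other known LXR targets. The median of the 11 measured targets was -0.03, and 8 lay below the all-gene median. The share below it was 50% of all genes and 39.5% of those averaging 10 FPKM or more. The list median was -0.23 with a minimum of 5 FPKM, -0.18 as deposited, -0.11 after upper quartile scaling and -0.33 after rescaling to equal sums. After length correction it was -0.003, with 6 of the 11 below 0. Of the 11, 2 were at least 1.5-fold lower, against 2.61% of all genes and 1.92% of those averaging 10 FPKM or more. These 2 were the stearoyl-CoA desaturase Scd1 (1912 and 667 FPKM, -1.37) and the lysophospholipid acyltransferase Lpcat3 (114.8 and 67.1 FPKM, -0.61). The sterol exporters Abcg5 (21.5 and 16.8 FPKM) and Abcg8 (18.9 and 16.6 FPKM), named here after their values were seen, had ratios of -0.19 and -0.03. LXR alpha itself, Nr1h3, stood at 57.9 and 59.3 FPKM (0.19), and LXR beta, Nr1h2, at 20.4 and 17.7 FPKM (-0.04).

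Of 13 measured transcriptional regulators of these genes, 11 lay below the all-gene median, with a list median of -0.14. The share below it was 50% of all genes and 39.5% of those averaging 10 FPKM or more. After length correction 10 of the 13 were below 0, and the list median was -0.09. Pparg, a nuclear receptor of lipid storage, was the lowest (7.74 and 3.54 FPKM, -0.79). Hnf4a, the hepatocyte nuclear factor, stood at 91.0 and 71.9 FPKM (-0.18). The highest after Nr1h3 was Srebf2, the regulator of cholesterol synthesis, at 5.27 and 4.79 FPKM (0.04).

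Genes that handle cholesterol once it has reached the hepatocyte had a median of -0.19, and 14 of 17 lay below the all-gene median. The share below it was 50% of all genes and 39.5% of those averaging 10 FPKM or more. After length correction 12 of the 17 were below 0, and the list median was -0.11. Cyp8b1, the sterol hydroxylase that sets bile acid composition (129 and 69.4 FPKM, -0.74), and Lipa were at least 1.5-fold lower. The oxysterol hydroxylase Cyp7b1 was the highest (74.3 and 122 FPKM, 0.85), followed by Npc2, for lysosomal cholesterol export (17.1 and 17.1 FPKM, 0.16).

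All 9 measured genes that make, break down, move or sense sphingosine-1-phosphate, the lipid bound by APOM, lay below the all-gene median, with a list median of -0.11 and none past 1.5-fold. As a share, 50% of all genes lay below that median, 2.61% were at least 1.5-fold lower and 6.73% at least 1.5-fold higher. The lyase gene Sgpl1 (11.0 and 6.47 FPKM, -0.53) and the phosphatase Ppap2b (19.3 and 12.8 FPKM, -0.40) were the lowest, and the receptor genes S1pr5 (1.05 and 0.835 FPKM, -0.01) and S1pr2 (1.17 and 0.905 FPKM, -0.04) were nearest 0. After length correction 7 of the 9 were below 0, S1pr2 (0.09) and S1pr5 (0.03) were above it, and the list median was -0.06.

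Paralogs of the HDL genes, related by sequence, had a median of -0.14 over 15 measured genes, 12 of them below the all-gene median. The share below it was 50% of all genes and 39.5% of those averaging 10 FPKM or more. Cd36, a fatty acid receptor of the SR-BI family, was the lowest (23.0 and 9.25 FPKM, -1.08), and after it came Pon2. Lbp, a lipid transfer protein of the PLTP family that binds bacterial lipopolysaccharide, was the highest (22.0 and 24.5 FPKM, 0.30), followed by the exporter Abcg2 (58.3 and 57.0 FPKM, 0.12). The direction of Pltp was thus not that of its measured relative Lbp. After length correction the median of the paralogs was -0.007, and 8 of the 15 were below 0.

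Bulk liver holds several cell types, and fewer cells of a type and less RNA per cell cannot be told apart. Hepatocyte markers were abundant in both libraries, and 4 of 7 lay below the all-gene median, with a summed level of 23788 FPKM in wild type and 19770.1 FPKM in the knockout library. Of 12 Kupffer cell markers, 10 lay above the all-gene median (sums 267 and 317 FPKM), as did 6 of 9 sinusoidal endothelial (78.8 and 84.6 FPKM), 5 of 7 stellate cell (73.1 and 73.9 FPKM) and 3 of 3 cholangiocyte markers (16.2 and 23.6 FPKM). By comparison, 3019 of the 4991 genes averaging 10 FPKM or more lay above it, and 5992 of all 11985 genes. Most of the endothelial, stellate and cholangiocyte markers averaged less than 10 FPKM. The sums are as deposited and lean on the most abundant marker of a list. These were Alb for hepatocytes (17521.9 and 14031.1 FPKM), Lyz2 for Kupffer cells (72.5 and 116 FPKM) and Spp1 for cholangiocytes. Whether the proportions of cell types differed was not tested. Macrophages are also known to express Abca1 and Pltp. Of the 6 adipocyte markers, 3 were measured, and 2 of these lay below the all-gene median and 1 above it. Cfd (13.3 and 2.01 FPKM, -2.09) and Cidec (4.73 and 0.913 FPKM, -1.43) were the lower ones, Fabp4 was at 9.61 and 11.0 FPKM (0.32), and the other 3 listed markers, Plin1, Lep and Retn, were not analysed here. The summed level of the 3 measured markers was 27.6 and 13.9 FPKM, and their part in the Pltp difference was not tested.

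Other neighbours of HDL genes in RefSeq order lay on both sides of the all-gene median. Next to Lipc, Aqp9, the hepatic glycerol channel, stood at 115 and 88.5 FPKM (-0.22) and Adam10 at 3.02 and 2.27 FPKM (-0.14), both below the all-gene median like Lipc (-0.23). Next to Abca1, Nipsnap3b was at 104 and 98.9 FPKM (0.08) and Slc44a1, a choline transporter gene, at 14.4 and 12.7 FPKM (-0.01). Next to Lcat, the proteasome gene Psmb10 was at 21.2 and 25.9 FPKM (0.43) and Slc12a4 at 2.95 and 2.38 FPKM (-0.07), and beyond Apof, Stat2 was at 3.49 and 3.20 FPKM (0.05). One side of Abcg1 is taken by Tff3, a trefoil peptide gene that stood at 2.52 and 20.2 FPKM (2.74).

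Across the settings tried, the place of Pltp at the bottom of the HDL genes and of Apom at the top did not change. The other scalings, the minimums and the summed rows move all HDL genes by nearly the same amount, so they could hardly change this order. Only the pseudocounts and the length correction move these genes by different amounts. The ratio of Pltp ran from -1.76 to -1.45 and was past 1.5-fold under all 11 settings, the reported one included. That of Apom ran from 0.49 to 0.83 and was past 1.5-fold under 9 of the 11. Abca1, Lipc, Pon1 and Pon3 were below 0 and Apof above 0 under all 11, while Lcat and Scarb1 took both signs.

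**Figure D5:**
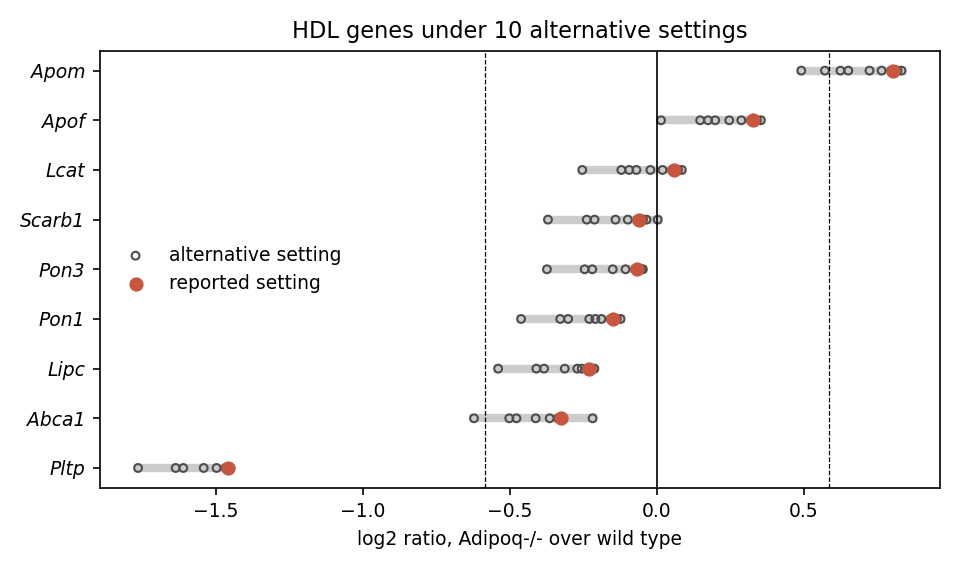
Log2 ratio of Adipoq-/- over wild type (horizontal axis) for each HDL gene under the reported setting (red) and 10 alternatives (open circles), with the grey bar as their range and dashed lines at 1.5-fold. Pltp stays between -1.76 and -1.45, Apom between 0.49 and 0.83, and Lcat crosses 0.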

How the data were processed

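The authors deposited FPKM, 1 value per gene and library, from the pooled liver RNA of each genotype. The programs TopHat and Cuffdiff and the builds mm9 and NCBIM37 are named per the submitters' processing notes. The sources used here do not give versions, annotation, strand use or row filters. The members and the gene lists were chosen with earlier results of these data known.

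From the deposited FPKM, log2((knockout + 1) / (wild type + 1)) was computed for the 11985 genes that reached 1 FPKM in a library and centred on their median. Where a symbol had 2 rows (26 symbols), the one with the higher mean was used. A gene past 1.5-fold was counted as lower or higher. No test across samples was possible with 1 library per genotype. The ratio and centring steps were tested on simulated data (Python 3.11.15, pandas 2.3.3, NumPy 2.4.6). That simulation held no trend with transcript length and used no other scaling, so it does not bear on the length correction or the choice of scaling. Lengths are the longest GENCODE M21 transcript, matched by symbol or RefSeq synonym for 11571 genes (96.5%). These annotations are on GRCm38, not the build of the files, so only order, length and overlap were taken, and promoter sequences carry their own build.

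Genes named beside the members were the 2 highest and 2 lowest of each list, a few set by name, and the genes next to each member. Some genes that this rule takes are not reported. The alternatives tried were a pseudocount of 0.1 or 0.5 FPKM, a minimum of 0 or 5 FPKM, 4 other scalings, summed rows and a length correction in 20 bins.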

Additional observations from a re-analysis of the deposited data

How the results depend on the processing

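No paired analysis was possible because each genotype has 1 library, and for the same reason no library could be left out. A value was taken as moved when it differed by 0.1 or more on the log2 scale, or, for a count, by more than 1.5 times. The median of the 9 HDL genes, -0.07 as reported, was -0.22 as deposited, -0.37 after rescaling to equal sums and -0.25 after rescaling without Mup and mitochondrial genes. After rescaling to equal sums, 2 HDL genes (Pltp and Abca1) were at least 1.5-fold lower in place of 1, and 0 were at least 1.5-fold higher in place of 1. Relative to genes of like length, 0 were at least 1.5-fold higher. The other 44 of 50 values on the HDL genes and lists as a whole stayed within these limits. HDL genes below 0 were 6 as reported. They were 7 as deposited, after upper quartile scaling and after rescaling to equal sums with or without Mup and mitochondrial genes. Of the 9 lists, 7 had a median below 0 as reported, 8 as deposited and 9 after rescaling to equal sums. Neither count could rise by more than 1.5 times, so the limit could not mark either as moved upward. Of the values of single HDL genes and single lists, 62 moved and 118 did not, and those that moved include the ratio of each HDL gene as deposited and after rescaling to equal sums. No HDL gene past 1.5-fold changed sign. Over all genes, pseudocounts of 0.1 and 0.5 FPKM gave 707 and 473 genes at least 1.5-fold lower, against 313 as reported. Those counts were 739 as deposited, 533 after upper quartile scaling, 1495 after rescaling to equal sums and 828 without Mup and mitochondrial genes. The higher genes, 806 as reported, were 387, 523, 182 and 344 under these 4 scalings and 365 relative to genes of like length. The depth behind each FPKM value is unknown, so counting error cannot be given, and the error between animals was not measured.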
